A study of Mus musculus with 16 samples.

Results

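The kinases ERK and mTOR are each part of a relay that carries growth signals into a cell. Here 9 genes of these relays were examined by their transcript levels. They were taken by gene symbol and were all listed in both deposited expression tables, which together held 16612 genes, 11812 of them in common. The members of the ERK relay were Map2k1 and Map2k2 (the kinases MEK1 and MEK2), Mapk3 (ERK1), Rps6ka1 (the ribosomal S6 kinase RSK1) and Dusp6 (a phosphatase of ERK). The members of the mTOR relay were Akt1, Mtor, Rps6kb1 (the S6 kinase p70S6K) and Eif4ebp1 (the translational repressor 4E-BP1).

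The question was whether loss of the cytokine IL-6 in the host changes gene expression in leukemia cells and in the cells around them. B-cell acute lymphoblastic leukemia (B-ALL) cells that carry the BCR-ABL fusion, lack Arf and express mCherry were injected (500000 cells) into C57BL/6J wild-type (WT) mice or into Il-6-/- knockout (IL-6 KO) mice of the same background, aged 6 to 8 weeks, and marrow was taken on day 8 with no drug given. Cells were sorted into mCherry-positive (tumor) and mCherry-negative (stroma) fractions and the RNA was sequenced after ribosomal RNA depletion, which gave 4 libraries for each of the WT tumor, IL-6 KO tumor, WT stroma and IL-6 KO stroma groups. The leukemia cells were the same in every host, so only host cells lacked Il6. The gene itself was not analysed here and gave no check of the labels. The stroma fraction was every live mCherry-negative cell left after red cell lysis and was not sorted for any stromal cell type. No label said that replicates of a group were separate animals, so p-values measure the spread between these libraries, which may be technical.

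All 9 are protein-coding genes, and their positions are given on GRCm38 with the number of exon blocks after merging transcripts. In the ERK relay these are Map2k1 (chr9:64185770-64253631, minus strand, 11 exon blocks), Map2k2 (chr10:81105915-81133975, plus strand, 14 exon blocks), Mapk3 (chr7:126759601-126765819, plus strand, 9 exon blocks), Rps6ka1 (chr4:133847290-133887797, minus strand, 26 exon blocks) and Dusp6 (chr10:99263231-99267489, plus strand, 4 exon blocks). In the mTOR relay they are Akt1 (chr12:112653821-112674884, minus strand, 16 exon blocks), Mtor (chr4:148448611-148557683, plus strand, 56 exon blocks), Rps6kb1 (chr11:86498871-86544805, minus strand, 19 exon blocks) and Eif4ebp1 (chr8:27260329-27276674, plus strand, 6 exon blocks). The tables hold 1 value per gene and library, so transcript isoforms cannot be told apart.

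In the textbook pathway, Ras activates Raf kinases, which phosphorylate MEK1 and MEK2. These phosphorylate the ERK kinases, which activate RSK kinases and switch on genes that include Dusp6, a feedback inhibitor that dephosphorylates ERK. PI3-kinase recruits AKT to the membrane, AKT relieves the block on mTOR complex 1, and this complex phosphorylates S6 kinase and 4E-BP1 to raise protein synthesis. BCR-ABL drives both relays in leukemia. Apart from the switching on of genes, these steps act on proteins, many by phosphorylation, and transcript levels do not measure them. Dusp6 transcription, however, follows ERK activity in many cells.

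Values are normalized counts, meaning estimated read counts divided by a scaling factor for each library, and the tumor and stroma tables were scaled separately. The sum of normalized counts was 38817800 to 55593000 in tumor libraries and 8805690 to 44192000 in stroma libraries, and the depth of the libraries in reads is unknown from these values. The summed expression of B-lineage markers went with the labels, at 126378 to 141986 in tumor libraries (9 of 10 listed genes in the tumor table). The summed B-lineage level was 490.0 to 1492 in the stroma libraries, with 10 of 10 listed genes in the stroma table. Marker genes at the highest sums in the stroma libraries were erythroid (56977 to 241026) and mature neutrophil (8264 to 34846). Mesenchymal and endothelial markers (5 of 8 in the stroma table) summed to 183 to 1662 there, below both blood cell lists in every stroma library.

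In leukemia cells, transcripts of Akt1 and Map2k2 were higher in IL-6 KO hosts than in WT hosts in the deposited scaling, and the other 7 genes did not pass the test. Neither call held once a trend with GC content and transcript length was removed. Akt1 encodes AKT1, the kinase that couples PI3-kinase to mTOR. Its normalized counts were 12605, 13888, 12679 and 13855 in WT tumor replicates 1 to 4 and 15759, 16566, 16083 and 16347 in IL-6 KO tumor replicates 1 to 4. Every IL-6 KO library lay above every WT library. The group means were 13257 ± 711 in WT and 16189 ± 348 in IL-6 KO (SD, n = 4). Akt1 rose by 0.29 in log2 units (SE 0.0575), or 22.2% on the log2(normalized count + 1) scale, with an adjusted p of 0.00921 by limma.

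Map2k2 encodes MEK2, which phosphorylates ERK. The 4 WT tumor libraries held 4567, 3617, 3870 and 4365 normalized counts, and the 4 IL-6 KO tumor libraries 5476, 5675, 5126 and 5416. Again no WT library reached the lowest IL-6 KO library. With means of 4105 ± 438 in WT and 5423 ± 227 in IL-6 KO (SD, n = 4), Map2k2 rose by 0.41 in log2 units (SE 0.0829, 32.6%), with an adjusted p of 0.0102 by limma. For each of these 2 genes the exact two-sided permutation test gave p = 0.0286, the smallest value that 4 libraries against 4 allow, and both calls held when any single library was left out (adjusted p of 0.00851 to 0.0335 for Akt1 and 0.00981 to 0.0339 for Map2k2). The 2 of 9 members called higher stand against 10.6% of the 14493 genes tested in tumor, and none was called lower, against 9.16%. The 2 members with groups that did not overlap stand against 25.6% of all genes, so these counts are no result about the 9 genes as a set.

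**Figure D1:**
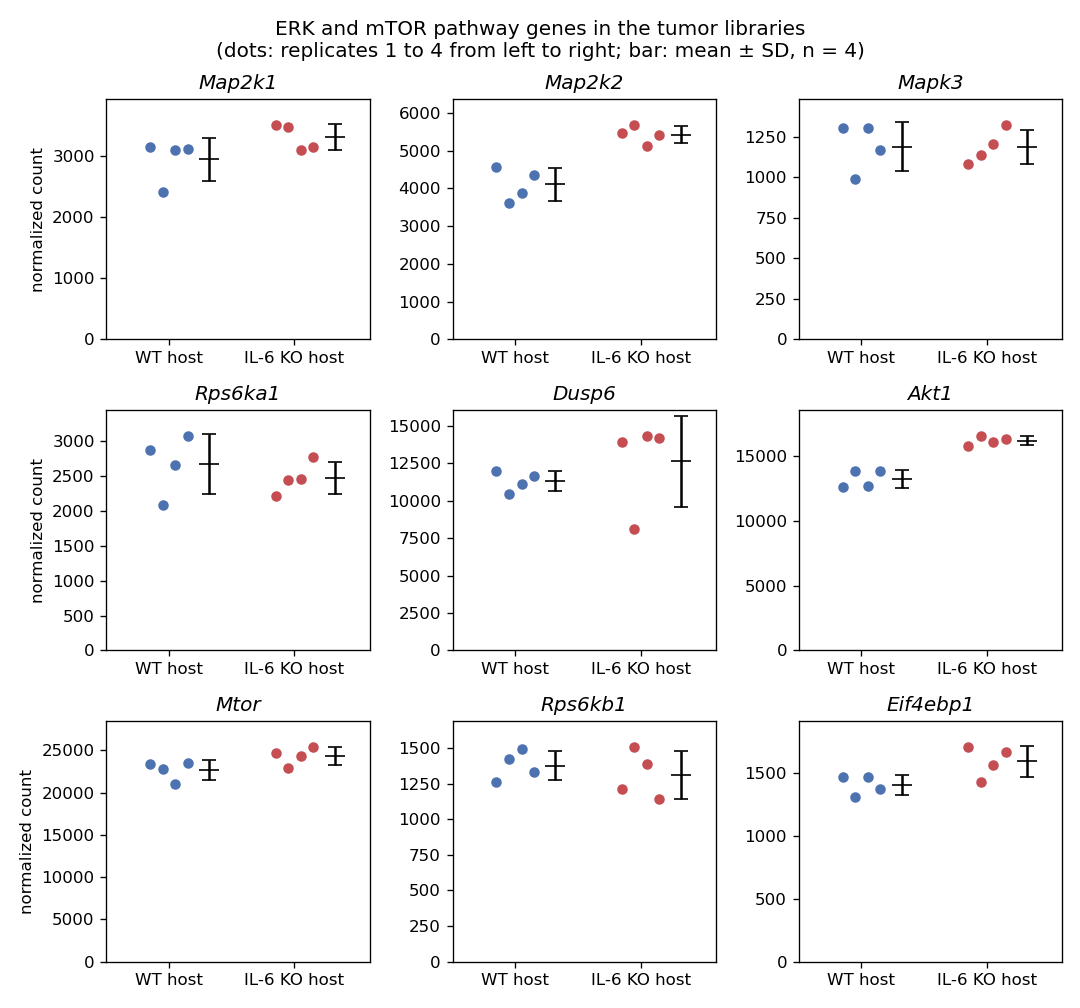
Normalized counts of the 9 genes in the tumor libraries, with dots for the 4 replicates of each host genotype and a bar for the mean ± SD (each y axis starts at 0 and has its own scale). The WT and IL-6 KO dots separate for Akt1 and Map2k2, and in the Dusp6 panel IL-6 KO replicate 2 lies alone at 8078.

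Both called genes have transcripts rich in G and C. GC content was 59.7% for Akt1 and 60.4% for Map2k2, above 95.6% and 96.7% of the genes tested in tumor. Over all genes the change between hosts went with GC content, from a median log2 fold change of -0.27 in the lowest of 10 equal bins of GC content to 0.24 in the highest. When a trend with GC content and transcript length was removed from each library, a step chosen after seeing the data, the log2 fold change was 0.0027 for Akt1 (SE 0.0789, adjusted p = 0.986 by limma) and 0.13 for Map2k2 (SE 0.0623, adjusted p = 0.182 by limma). After that step 0 of 9 genes were called higher, against 6.19% of all genes, and 1 was called lower, against 6.39%. That gene was Rps6ka1. GC content and length were removed in 1 step and not separately. Whether the GC trend came from the cells or from library preparation was not tested.

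**Figure D2:**
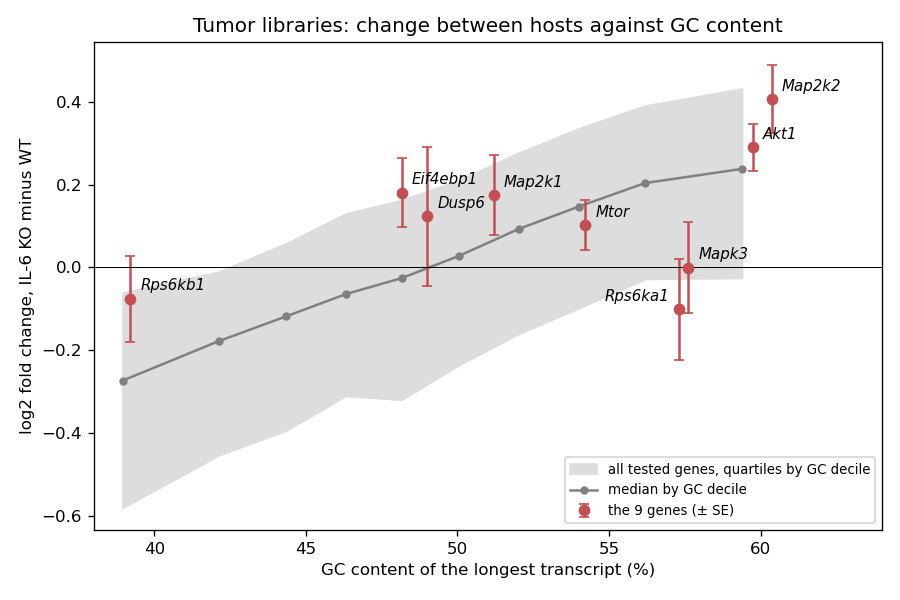
Log2 fold change (IL-6 KO minus WT, tumor libraries) against the GC content of the longest transcript, with the 9 genes as points (± SE) over the median and quartiles of all tested genes in 10 bins of GC content. Medians climb from -0.27 to 0.24, Akt1 (0.29) and Map2k2 (0.41) lie at the GC-rich end above the median, and Mapk3 and Rps6ka1 lie below it.

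The promoters of the 2 called genes are shown to set their letters beside the GC content of the transcripts. Each is the 250 bases before the transcription start, as RefSeq gives them on GRCm38.p6, 5′ to 3′ on the strand of the gene. Mtor is added as the only one of the 7 members in the promoter table with a STAT motif (TTCNNNGAA), the letters bound by the STAT3 factor that IL-6 activates. Capitals mark matches, on either strand, to the GC-box (GGGCGG), the ETS motif (CCGGAAG) or the STAT motif. The windows lie at chr12:112674885-112675134 on the minus strand (Akt1), chr10:81105665-81105914 on the plus strand (Map2k2) and chr4:148448332-148448581 on the plus strand (Mtor).
Akt1: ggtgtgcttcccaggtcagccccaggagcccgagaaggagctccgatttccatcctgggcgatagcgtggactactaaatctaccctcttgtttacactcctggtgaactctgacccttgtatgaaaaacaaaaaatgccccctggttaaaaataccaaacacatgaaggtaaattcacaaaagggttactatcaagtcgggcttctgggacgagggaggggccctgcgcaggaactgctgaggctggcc
Map2k2: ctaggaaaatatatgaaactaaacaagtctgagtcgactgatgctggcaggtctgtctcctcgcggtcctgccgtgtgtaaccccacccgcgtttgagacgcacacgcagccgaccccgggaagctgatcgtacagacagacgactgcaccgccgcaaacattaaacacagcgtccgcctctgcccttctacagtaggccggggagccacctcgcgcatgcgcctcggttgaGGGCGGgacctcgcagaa
Mtor: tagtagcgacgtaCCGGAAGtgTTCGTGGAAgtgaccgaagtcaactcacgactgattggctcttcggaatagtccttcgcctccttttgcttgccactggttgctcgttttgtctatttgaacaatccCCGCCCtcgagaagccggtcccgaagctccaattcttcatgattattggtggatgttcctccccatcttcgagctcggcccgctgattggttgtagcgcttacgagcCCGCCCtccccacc

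Of the 9 genes 7 were in the promoter table, in 10 windows. The GC-box was found in 1 place for Map2k2, 2 for Mtor and 4 for Map2k1, and 32.7% of all 32851 windows hold it. Akt1 had 2 windows, for separate transcription starts, with no GC-box in the one shown and 4 in the other, and Rps6ka1 had 3 windows, one of them with 3. Dusp6 and Rps6kb1 had none. A STAT match was present only in the Mtor window among these 10 (7.02% of all windows hold one), as was the ETS match (6.91% of all). None of the 10 held an E-box (CACGTG, 6.02% of all) or a CRE (TGACGTCA, 1.55% of all). GC content was 52% in the Akt1 window shown, 78.4% in the other Akt1 window and 59.6% in the Map2k2 window, where the median of all windows was 52.4%. A match is a run of letters and not a bound site.

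The other members of the ERK relay did not pass the test in tumor. Map2k1, which encodes MEK1, the close relative of MEK2, was at 3149, 2411, 3089 and 3118 in WT tumor replicates 1 to 4. The IL-6 KO tumor libraries had 3505, 3471, 3099 and 3152 normalized counts, 3 of them above every WT library, and the ranges overlapped. Its log2 fold change was 0.17 (SE 0.0975, adjusted p = 0.230 by limma), with a 95% confidence interval from -0.04 to 0.39. The interval took in the fitted change of Akt1 (0.29) and ended just below that of Map2k2 (0.41). WT replicate 2 lay well under the other 3, and the log2 fold change was 0.08 without it and 0.09 with the GC and length trend removed.

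Mapk3, the gene for ERK1, had the same level in leukemia cells of both hosts within the error. WT tumor libraries held 1304, 987, 1301 and 1168 normalized counts and IL-6 KO tumor libraries 1081, 1135, 1203 and 1323. The groups overlapped throughout, and the difference in means was -0.00073 on the log2 scale (95% confidence interval -0.24 to 0.24, adjusted p = 0.997 by limma). With the GC and length trend removed the value was -0.29 (SE 0.105), which did not pass (adjusted p = 0.0997 by limma).

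Rps6ka1 encodes RSK1, a kinase that ERK activates and that can phosphorylate ribosomal protein S6. It was at 2863, 2078, 2655 and 3068 in WT tumor and at 2208, 2444, 2453 and 2768 in IL-6 KO tumor, where each library fell within the WT range. The log2 fold change was -0.10 (SE 0.122, adjusted p = 0.593 by limma). Removing the GC and length trend took it to -0.41 (SE 0.110, adjusted p = 0.0394 by limma), the one call among the 9 genes under that step. Its exons overlap 247 bases of Gm12977 on the opposite strand, and the counting is not stated to use strand.

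Dusp6, the ERK phosphatase whose transcription responds to ERK, was split by a single library. WT tumor libraries had 11985, 10450, 11099 and 11650 normalized counts. IL-6 KO tumor replicates 1, 3 and 4 had 13930, 14308 and 14176, all above the WT range, and replicate 2 had 8078, below it. Over all 8 libraries the log2 fold change was 0.12 (SE 0.168, adjusted p = 0.639 by limma). Without IL-6 KO tumor replicate 2 it was 0.33 (SE 0.0567, adjusted p = 0.00564 by limma), so the call for Dusp6 rests on whether that library is used.

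In the mTOR relay, Mtor, Rps6kb1 and Eif4ebp1 did not pass the test in tumor. Mtor, the kinase of both mTOR complexes, had 23334, 22780, 20992 and 23554 normalized counts in WT tumor and 24663, 22870, 24384 and 25387 in IL-6 KO tumor. The groups overlapped through IL-6 KO replicate 2. The log2 fold change was 0.10 (SE 0.0606, adjusted p = 0.257 by limma), and it was -0.01 after quantile normalization and -0.04 with the GC and length trend removed. An increase in Mtor above 0.24 lies outside the 95% confidence interval of the fit, which ran from -0.03 to 0.24.

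Eif4ebp1, the repressor that mTOR inactivates, was at 1469, 1305, 1464 and 1375 in WT tumor and at 1706, 1431, 1564 and 1670 in IL-6 KO tumor. Replicate 2 of the IL-6 KO tumor group lay within the WT range and the other 3 lay above it. The log2 fold change of 0.18 (SE 0.0824, adjusted p = 0.148 by limma) did not pass, and passed when libraries were weighted by quality (0.22, SE 0.0682, adjusted p = 0.0374 by limma). Its GC content (48.2%) is near the middle of all genes, and with the trend removed the value was 0.17 (SE 0.0748, adjusted p = 0.155 by limma).

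Rps6kb1, the S6 kinase, had 1261, 1419, 1495 and 1329 normalized counts in WT tumor and 1212, 1506, 1385 and 1139 in IL-6 KO tumor. IL-6 KO replicates 1 and 4 lay below the WT range, replicate 2 above it and replicate 3 within it. The log2 fold change was -0.08 (SE 0.104, adjusted p = 0.641 by limma) and became 0.16 (SE 0.112, adjusted p = 0.389 by limma) when the trend was removed. This transcript has the lowest GC content of the 9 (39.2%). Its exons share 155 bases with Rnft1 on the opposite strand.

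**Figure D3:**
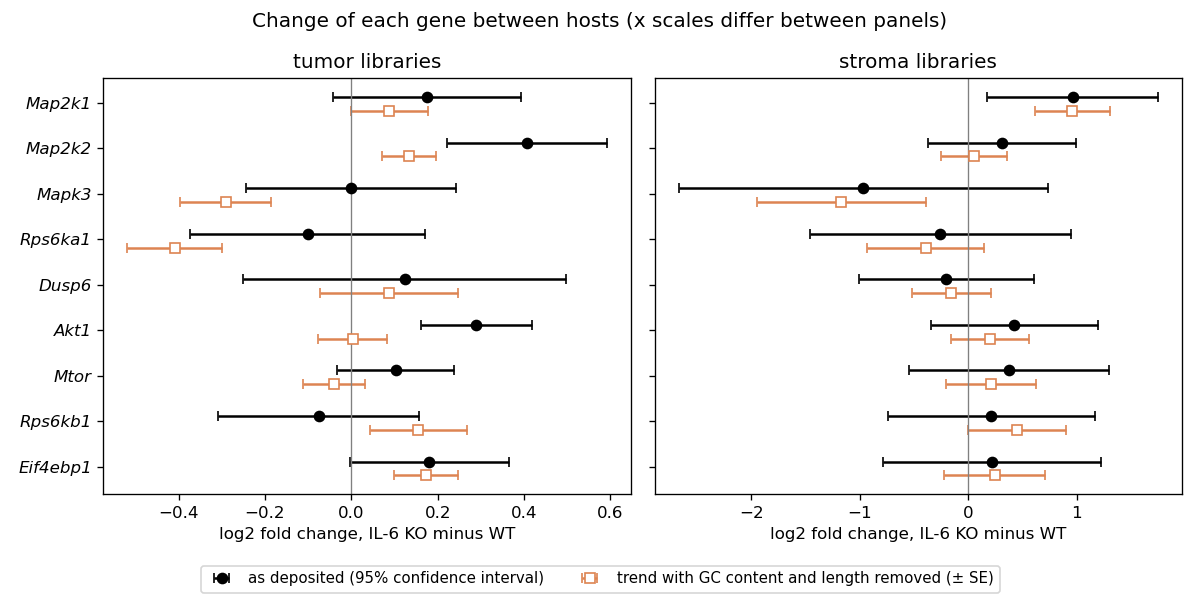
Log2 fold change (IL-6 KO minus WT) of each gene in tumor (left) and stroma (right), as deposited with its 95% confidence interval (black) and with the GC and length trend removed ± SE (orange); the x scales differ. In tumor the values of Akt1 and Map2k2 move from 0.29 and 0.41 as deposited to 0.0027 and 0.13 with the trend removed, and the stroma intervals are wider than those in tumor.

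Markers of other cells also differed between the tumor groups. All 13 mature neutrophil markers were higher in IL-6 KO tumor libraries and 9 were called, with a summed level of 4729 to 5386 in WT tumor and 17136, 17850, 7259 and 15635 in IL-6 KO tumor replicates 1 to 4. Replicate 3 had the lowest IL-6 KO sum (7259), which was still above every WT library. Its Akt1 was 16083 and its Map2k2 was 5126, both above every WT library, and that Map2k2 level was the lowest in the IL-6 KO group. Monocyte and macrophage markers (of 8 tested 5 were higher and 3 lower, with 3 called higher) summed to 1706 to 2159 in WT and 2205 to 2883 in IL-6 KO tumor. The B-lineage sum was 126378 to 130334 in WT and 138949 to 141986 in IL-6 KO tumor. Of its 9 tested genes 6 were higher and 3 lower, with 1 called higher (Vpreb1) and 2 called lower (Ebf1 and Cd22). The part of these cells in the levels of the 9 genes was not tested, and in bulk samples fewer cells of a type and less RNA per cell cannot be told apart.

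Close relatives of the members were measured too. Rps6kb2, the second S6 kinase, fell by 0.50 on the log2 scale (adjusted p = 0.0415 by limma). With the GC and length trend removed its log2 fold change was -0.76 (adjusted p = 0.00901 by limma). It shares 1224 exon bases with Ptprcap on the opposite strand. Eif4ebp2, a paralog of Eif4ebp1, rose by 0.20 (adjusted p = 0.0385 by limma) and lost the call with the trend removed (0.09, adjusted p = 0.286 by limma). Eif4e, the cap-binding protein that the 4E-BPs hold back, had a log2 fold change of -0.15 (adjusted p = 0.408 by limma).

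Among 50 tested genes of a wider ERK list that includes the members, 10 were called higher (20%) and 6 lower (12%) in tumor, where 10.6% and 9.16% of all genes were. The median log2 fold change of the list was 0.05 against -0.0059 for all genes. Hras, a Ras protein, rose by 0.63 (SE 0.0687, adjusted p = 0.00096 by limma), and Ptpn11, the phosphatase SHP2, by 0.38. Rasa1, a GTPase activator that turns Ras off, was lower by the log2 fold change of -0.93 (adjusted p = 0.00415 by limma), and the adaptor Grb2 was lower too (-0.44, adjusted p = 0.00678 by limma). Shc1 (0.38, adjusted p = 0.0588) and Braf (-0.37, adjusted p = 0.0611) came closest to the threshold without passing it in limma. With the GC and length trend removed, 4 genes of the list were called higher and 6 lower (6.19% and 6.39% of all genes), and Hras, Ptpn11, Rasa1 and Grb2 were still called in the same direction.

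Of 55 tested genes of the PI3K and mTOR list, 6 were called higher (10.9%) and 4 lower (7.27%) in tumor, near the 10.6% and 9.16% of all genes, with a median log2 fold change of -0.008. Rragd, a Rag GTPase that brings mTOR to the lysosome, fell by 0.57, and Gsk3b, a kinase that AKT inhibits, fell by 0.46. Lamtor4, part of the anchor for the Rag GTPases (0.48), and Eif4b, a translation factor and S6 kinase substrate (0.35), rose. Rptor (0.30, adjusted p = 0.0515) and Rraga (0.19, adjusted p = 0.0996) did not pass in limma. With the trend removed 2 genes of this list were called higher and 4 lower (6.19% and 6.39% of all genes), and Rragd, Gsk3b and Eif4b were still called while Lamtor4 was not (0.27, adjusted p = 0.112 by limma). None of the 8 PI3-kinase subunits, 4 TSC and Rheb genes or 8 mTOR complex subunits was called in tumor.

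In stroma no member passed the test, with 0 of 9 called by limma against 0.0082% of 12202 genes (1 gene), and 1 of 9 at an unadjusted p under 0.05 against 9.15% of all genes. Groups overlapped for all 9 members, where 5.79% of all genes had groups that did not. That member was Map2k1. The WT stroma libraries had 201, 320, 455 and 470 normalized counts of this MEK1 transcript. Those of IL-6 KO stroma had 808, 689, 457 and 779. IL-6 KO replicates 1, 2 and 4 exceeded the WT maximum, and replicate 3 was within the WT range. The log2 fold change of 0.96 (SE 0.363, 95% confidence interval 0.17 to 1.75) had an adjusted p of 0.463 by limma. The mature neutrophil sum was 34846, 33806, 8678 and 30572 in IL-6 KO stroma replicates 1 to 4 and 8264 to 15946 in WT stroma, so replicate 3 was the lowest IL-6 KO library on both measures. The part of neutrophils in the Map2k1 level was not tested.

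Mapk3 was the least even of the 9 genes in stroma. WT stroma replicates 1 to 4 had 73.5, 575, 218 and 206 normalized counts. IL-6 KO stroma replicates had 570.5, 61.3, 42.3 and 85.1, where replicate 1 stood far above the other 3. The log2 fold change of -0.97 had an SE of 0.786 (adjusted p = 0.731 by limma), and moved from -0.48 without WT stroma replicate 2 to -1.77 without IL-6 KO stroma replicate 1. Dusp6, by contrast, kept to 113, 135, 155 and 144 with WT hosts and to 118, 123, 102 and 130 with IL-6 KO hosts. These overlapped, with a log2 fold change of -0.20 (SE 0.373, adjusted p = 0.899 by limma).

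Akt1, called in tumor, had 609, 344, 639 and 699 normalized counts in stroma of WT hosts and 513, 601, 1059 and 927 in stroma of IL-6 KO hosts. The groups overlapped and the log2 fold change was 0.42 (95% confidence interval -0.35 to 1.19, adjusted p = 0.737 by limma). Map2k2 was at 262, 321, 272 and 365 in the WT libraries and at 409, 463, 316 and 329 in the IL-6 KO libraries, which overlapped. Its log2 fold change of 0.31 (95% confidence interval -0.38 to 0.99, adjusted p = 0.794 by limma) held both 0 and the change fitted in tumor.

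The remaining 4 genes overlapped between the stroma groups. Mtor ranged from 363 to 669 in WT stroma and from 272 to 1080 in IL-6 KO stroma (log2 fold change 0.37, SE 0.427, and -0.23 when libraries were weighted). Rps6ka1 ranged from 318 to 757 and from 191 to 1478 (-0.26, SE 0.556, and 0.19 without IL-6 KO stroma replicate 3). Rps6kb1 ranged from 185 to 439 and from 146 to 468 (0.21, SE 0.440), and Eif4ebp1 from 49.9 to 99.1 and from 68.7 to 114 (0.22, SE 0.466). The adjusted p of the 9 genes ran from 0.463 to 0.915 by limma. Residual SDs of the members on the log2 scale were 0.17 to 1.45 in stroma and 0.06 to 0.29 in tumor, so changes of the size seen in tumor were not detectable here. The stroma libraries also differed in make-up, since 1 gene took 20.3% to 50.1% of the normalized counts in WT stroma and 61.5% to 79.0% in IL-6 KO stroma (Gm26917, Rn7s1 or CT010467.1).

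**Figure D4:**
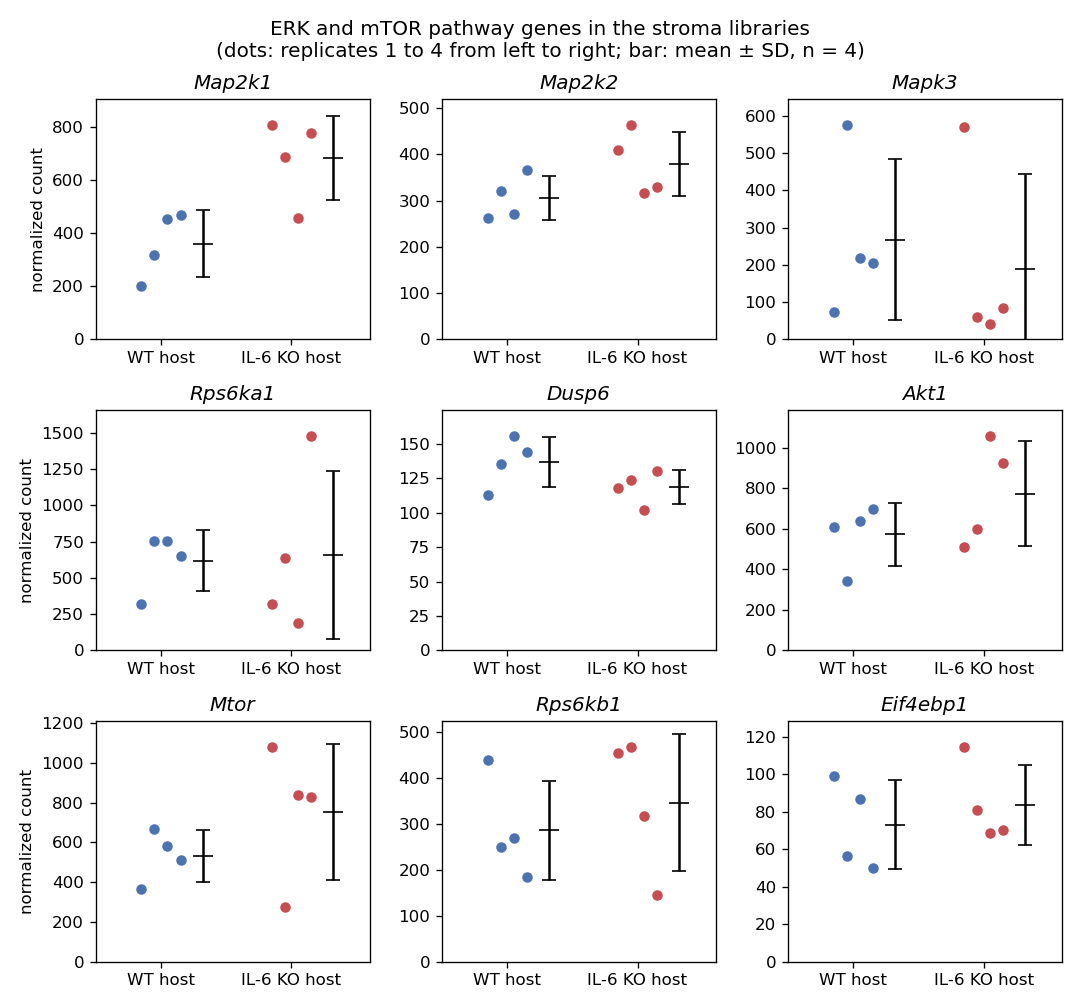
Normalized counts of the 9 genes in the stroma libraries, drawn as for tumor (dots for replicates 1 to 4, bar for the mean ± SD, y axes from 0 with their own scales, which ends the lower bar of Mapk3 in IL-6 KO at 0). WT and IL-6 KO dots overlap in every panel, and single high libraries are seen for Mapk3 (575 and 570.5) and Rps6ka1 (1478).

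In the wider lists no gene was called in stroma by limma, of 46 tested in the ERK list (4 at an unadjusted p under 0.05) and 52 in the PI3K and mTOR list (6), where 9.15% of all genes had such a p. Rasa1 had a log2 fold change of -1.48 (adjusted p = 0.434) and Pdpk1, the kinase PDK1 that activates AKT, one of -1.33 (adjusted p = 0.324). Lamtor4 had 1.29 (adjusted p = 0.465). The groups did not overlap for Pdpk1, Lamtor4 and some other genes of the PI3K and mTOR list. Of all genes tested in stroma, 5.79% had groups that did not overlap.

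The genotype effect was then compared between tumor and stroma in one fit of 10887 genes. The fit took the 16 libraries as independent, and tumor and stroma libraries of the same marrow, which the labels do not identify, would not be. No member passed the test of this difference, with 0 of 9 called by limma against 0.00919% of all genes (1 gene). The SEs of the members ran from 0.303 (Akt1) to 0.748 (Mapk3), so differences the size of the changes called in tumor could be missed. Map2k1 had the lowest adjusted p (0.606), with a difference of -0.79 (SE 0.402, 95% confidence interval -1.64 to 0.06) between 0.17 in tumor and 0.96 in stroma. For Akt1 the difference was -0.13 (95% confidence interval -0.77 to 0.51) and for Map2k2 0.10 (95% confidence interval -0.57 to 0.77). The rise called in tumor is therefore not shown to be particular to the leukemia cells.

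Levels are described next, without a test. Since the tables were scaled separately, each gene was ranked among the 11812 genes of both tables in its own library. Mtor stood between percentiles 98.3 and 98.6 in all 8 tumor libraries and between 76.0 and 94.8 in stroma. Akt1 was at 96.4 to 97.4 in tumor and 81.0 to 94.0 in stroma. Of the 9 genes Dusp6 had the widest gap between compartments, at 93.3 to 96.8 in tumor and 53.5 to 64 in stroma. Eif4ebp1 was also higher in every tumor library (58.9 to 65.7) than in any stroma library (38.6 to 55.9). Map2k1, Map2k2, Mapk3, Rps6ka1 and Rps6kb1 overlapped between compartments, and Mapk3 spanned 35.4 to 88.6 in stroma alone.

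**Figure D5:**
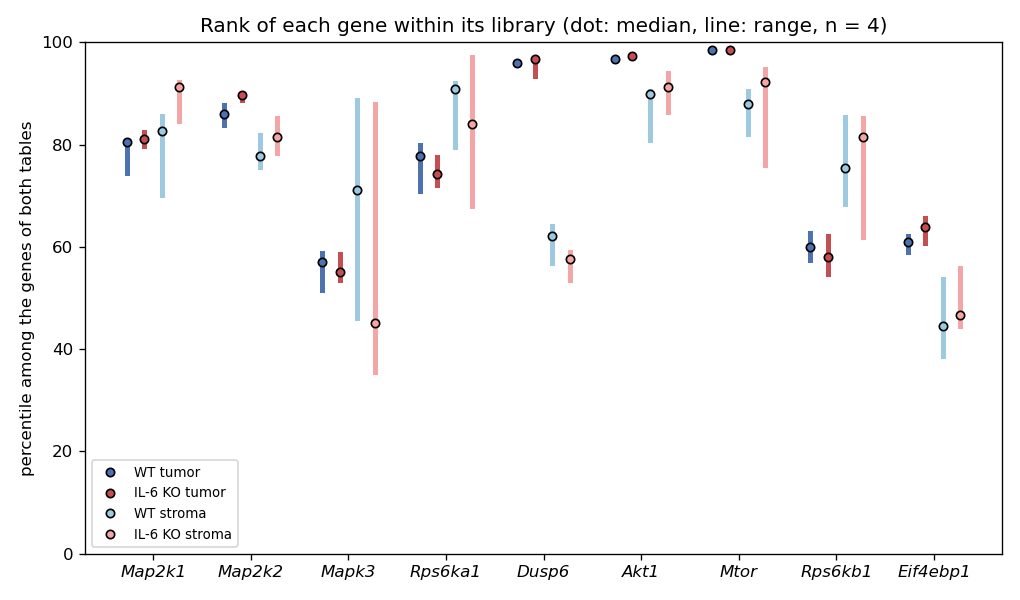
Percentile of each gene among the genes of both tables, as the median (dot) and range (line) of the 4 libraries in each group. Dusp6 sits at 93.3 or above in tumor and at 64 or below in stroma, and the stroma ranges are wider than the tumor ranges for most genes.

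Per kilobase of exon, Dusp6 (3819 ± 688 normalized counts per kb, SD over 8 libraries) and Akt1 (3593 ± 403) led in tumor, and Dusp6 was the higher of this pair in 6 of 8 libraries. Mtor followed at 2324 ± 134, below Akt1 in 8 of 8. Map2k1 (921 ± 98.3) and Map2k2 (841 ± 137) were close, with Map2k1 higher in 7 of 8. Eif4ebp1 (682 ± 63.4), Rps6ka1 (603 ± 78.6) and Mapk3 (526 ± 52.9) came next, and Rps6kb1 was lowest at 155 ± 15.3. Only Akt1 over Mtor, Mtor over Map2k1, Map2k2 over Eif4ebp1, Rps6ka1 over Mapk3 and Mapk3 over Rps6kb1 held in all 8 tumor libraries. With the length of the longest transcript in place of all exons, Akt1 (5473) came before Dusp6 (4277), Map2k2 (1981) before Map2k1 (1282), and Rps6ka1 (819) before Eif4ebp1 (750.1). In stroma Akt1 (164 ± 55.2), Map2k1 (154 ± 64.2) and Rps6ka1 (150 ± 94.7) were highest and Eif4ebp1 (35.6 ± 9.82) lowest per kb, and no neighbours in that order kept it in all 8 libraries.

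Over the 8 tumor libraries, the listed gene most like each member was found by Pearson's r on log2 values, among 104 others. These libraries share the host difference and the GC trend, and the values are given as a description. Each r is the highest of 104 over only 8 libraries, so a high value can arise by chance. Map2k2 was most like Eif4ebp2 (r = 0.95), Eif4ebp1 like Nprl2 (0.92), Map2k1 like Rptor (0.91) and Akt1 like Hras (0.90). Rps6kb1 was most like Elk4 (0.88), Mtor like Lamtor4 (0.88), Rps6ka1 like Elk1 (0.86), Dusp6 like Rheb (0.84) and Mapk3 like Rps6ka1 (0.77). Among the members themselves Akt1 and Map2k2 were nearest to each other (0.81), and Rps6kb1 had no positive r with any other member (highest -0.21).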

How the data were processed

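Deposited values were normalized counts, a signal per gene and library that the authors made with salmon 1.3.0 (mm10, with GC and sequence bias correction) and DESeq2 1.28.1, in one table for tumor and one for stroma. The authors' tables of differential expression (fold changes and p-values) were not used. These values are not whole reads, so depth and counting error are unknown and no count model was fitted. Genes with a mean over 10 were tested on log2(normalized count + 1) by limma 3.58.1 (R 4.3.3) with variances that follow the mean, host genotype as the only term and Benjamini-Hochberg adjustment over all genes of a table at 0.05, two-sided. The tumor and stroma effects were compared in one fit with 4 group means and weights estimated for each compartment. Exact permutation tests used all 70 splits of 8 libraries. Gene lengths, GC content and overlaps came from GENCODE annotation of GRCm38 (15069 of 15080 tumor and 13338 of 13344 stroma IDs matched), and near-identical copies from BLAST 2.17.0. The trend with GC content and length was removed in each library by loess (span 0.3), an alternative chosen after seeing the data. Other alternatives were pseudocounts of 0.5 and 5, no filter or a mean over 50, quantile normalization, median centring, library weights, a replicate block and each library left out. The members, gene lists and tests were chosen with earlier results of these data known. Genes named outside the members were relatives (Rps6kb2, Eif4e, Eif4ebp2) and, for each list and compartment, up to 6 called genes and 2 others with the smallest p, some of which are not reported here. T and NK markers (2 of 8 in each table) summed to 63.6 to 142 in tumor and 0 to 44.8 in stroma, and erythroid markers to 13108 to 16330 in tumor. Mesenchymal and endothelial markers summed to 2503 to 3288 in tumor, and monocyte and macrophage markers to 293 to 948 in stroma. The fitting code was tested on simulated data.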

Additional observations from a re-analysis of the deposited data

Results flagged for a closer look

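Of 36 groups of 4 libraries (9 genes in 4 groups), 3 had a library far from the others by Dixon's test at the 95% level, which chance gives in about 1 of 20 groups. Dusp6 in IL-6 KO tumor had its lowest library at 8078, against 13930 to 14308 in the other 3. Map2k1 in WT tumor had its lowest library at 2411, against 3089 to 3149 in the other 3. Mapk3 in IL-6 KO stroma had its highest library at 570.5, against 42.3 to 85.1 in the other 3. No member had a genotype effect that differed between tumor and stroma by limma's test of the difference.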

How the results depend on the processing

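The calls of Akt1 and Map2k2 in tumor held under every other alternative run (pseudocounts, filters, scalings, weights, the replicate block and each library left out) and ended when the trend with GC content and length was removed, with or without the replicate block, when 1 member (Rps6ka1, lower) was called. The number of all tumor genes called, 2870 as reported, was then 1823 and, with the block, 1398. It ranged from 1569 to 3327 with 1 library left out, and fell under 2870 by over 1.5 times without WT tumor replicate 2 (1791) or 3 (1722) and IL-6 KO tumor replicate 1 (1617) or 4 (1569). The number of members called ranged from 2 to 3 with 1 library left out. With the replicate number as a block, 2230 tumor genes, 2 tumor members and 0 stroma members were called. Deviations of same-numbered WT and IL-6 KO libraries within a compartment had r of -0.0186 to -0.00028 in tumor and -0.0293 to 0.126 in stroma. These low values cannot exclude a shared batch. Tumor and stroma libraries of the same number were not compared in this way. The Mapk3 difference in tumor, near 0, changed sign with median centring (0.0045), with weights (0.00089) and with single libraries left out (-0.0875 to 0.0461). Mtor in tumor turned to -0.0101 with quantile normalization and to -0.0402 with the trend removed, with or without the block, and Rps6kb1 to 0.16 with the trend removed, with or without the block. In stroma Mtor turned to -0.23 with weights, and Rps6ka1 ranged from -0.79 to 0.19 with 1 library left out. Stroma genes called, 1 as reported, were 4 with weights, 2 with the trend removed and 1 to 3 with 1 library left out (3 without WT stroma replicate 3 or IL-6 KO stroma replicate 3 or 4, and 2 without IL-6 KO stroma replicate 1). No stroma member was called under any alternative run. No cause of these shifts was tested.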
